A study of Mus musculus with 6 samples.

Results

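The desmosomal cadherins and plaque proteins were followed in cells of chemically induced mouse skin tumours that lacked or carried the epidermal fatty acid binding protein. The family was taken as 10 genes: the desmocollins Dsc1, Dsc2 and Dsc3, the desmogleins Dsg1a, Dsg2 and Dsg3, the armadillo proteins Jup, Pkp1 and Pkp3, and the plakin Dsp. A gene was measured where a probe set of the array carried its symbol and no other, and where several did, the brightest of them by its mean over all 6 arrays stood for it. By this rule 9 of the 10 genes were measured, with 20 probe sets between them, among 18193 genes in all. Dsg3 was matched to no such probe set and was not analysed here.

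The EKO group came from mice deficient in E-FABP, the fatty acid carrier encoded by Fabp5, and the WT group from wild-type mice, with 3 mice in each. Both groups had received the carcinogen DMBA and the tumour promoter TPA over 5 months, so every sample is a treated tumour and none is untouched skin. Tumours were digested to single cells, and RNA of the cells was hybridised to an Affymetrix 3' expression array, 1 array per mouse. How the Fabp5 gene was disrupted, and the strain, sex and age of the mice, are not stated in the labels used here.

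Desmosomes are spot junctions that fasten the keratin filaments of one epidermal cell to those of its neighbour. Desmocollins and desmogleins are cadherins that span the gap between the cells, plakoglobin and the plakophilins bind their tails on the inner side, and desmoplakin ties this plaque to keratin. In epidermis the Dsc3 and Dsg3 proteins prevail in the basal layers and the Dsc1 and Dsg1 proteins in the upper layers, whereas Dsc2 and Dsg2 are the cadherins shared with simple epithelia and heart muscle.

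The labels and the tissue were checked first. Fabp5 read 8.20, 8.30 and 7.98 in EKO replicates 1, 2 and 3, against 14.82, 14.94 and 14.80 in WT replicates 1, 2 and 3, on the log2 scale of all values given here, so that every array matched its label. Krt14, the keratin of basal keratinocytes, averaged 14.71 ± 0.03 in EKO tumours and 14.75 ± 0.08 in WT tumours (SD, n = 3 each), and Krt10, the keratin of spinous cells, averaged 14.39 ± 0.18 in EKO tumours and 14.25 ± 0.09 in WT tumours. All 54 values of the 9 desmosomal genes lay above the upper quartile of their arrays. Signals of different probe sets do not measure relative transcript levels, so the height of a gene's values says nothing of its level beside another gene's. In RNA of a mixed cell digest, fewer cells of a type and less RNA per cell cannot be told apart. The sample titles call the cells keratinocytes, while markers of other cell types, given below, were read as well. The titles also call the mice biological replicates, and 3 arrays per group limit the precision of every value.

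Of the 9 genes, Dsc2 had by far the widest gap between the groups, and the other 8 differed little. In EKO tumours Dsc2 averaged 10.71 ± 0.86, against 8.94 ± 0.20 in WT tumours (SD, n = 3 each), which is 3.42-fold higher in EKO. The other 8 genes had differences between -0.14 for Dsg1a and 0.26 for Jup. No gene of the family passed the test over all genes (limma with Benjamini-Hochberg adjustment, two-sided, 0 of 9 with an adjusted p under 0.05), where 0.0055% of all genes did, and 2 of the 9 had an unadjusted p under 0.05 with a higher EKO mean, where 3.44% of all genes did. With a lower EKO mean 0 of the 9 had one, against 3.7% of all genes. For those 2, Dsc2 and Jup, every EKO value lay above every WT value, which held for 5.78% of all genes. A higher EKO mean was seen for 7 of the 9 genes, against 50% of all genes, and the median difference of the 9 was 0.07, against 0.00 for all genes.

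**Figure D1:**
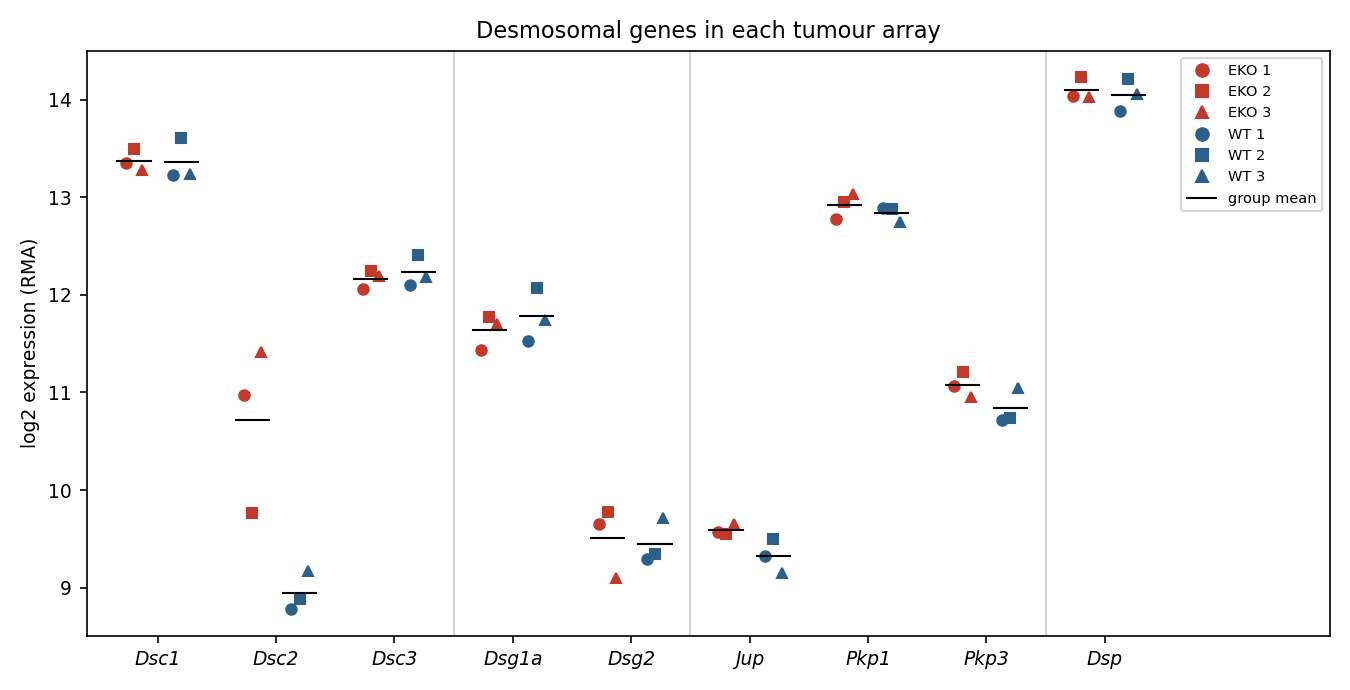
Log2 expression (vertical axis) of the 9 measured desmosomal genes in each array, with EKO tumours in red left of WT tumours in blue, marker shapes for replicates 1, 2 and 3, and black lines for the group means; grey lines separate desmocollins, desmogleins, armadillo proteins and the plakin Dsp. The 3 EKO values of Dsc2 spread from 9.76 to 11.42 above WT values of 8.78 to 9.17, while for the other genes the groups lie close together, and heights of different genes are not comparable.

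Among the desmocollins, Dsc2 was higher in every EKO tumour, by unequal amounts. It read 10.97, 9.76 and 11.42 in EKO replicates 1, 2 and 3, against 8.78, 8.88 and 9.17 in WT replicates 1, 2 and 3. EKO replicates 1 and 3 were far above the WT tumours, and EKO replicate 2 lay between, 0.59 above the highest WT value. The difference was 1.77 (SE 0.39, 95% interval 0.86 to 2.69) and ranked 27 by size among 18193 genes, of which 0.835% differed by at least 1. By unadjusted p it ranked 82, and it did not pass the test over all genes (limma adjusted p = 0.549). With EKO replicate 2 left out, Dsc2 was the single gene of the family that passed (difference 2.25, limma adjusted p = 0.0143), where 0.231% of all genes did, and over all alternatives its adjusted p ran from 0.0143 to 0.998.

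The second, dimmer Dsc2 probe set gave the tumours in the same order within EKO. It read 9.02, 8.20 and 10.33 in EKO replicates 1, 2 and 3, against 7.82, 7.69 and 8.01 in WT replicates 1, 2 and 3, again with no overlap. Its difference was 1.35 (SE 0.46, limma adjusted p = 0.611 over 34945 probe sets), or 2.54-fold higher in EKO. Without EKO replicate 2 this probe set had a difference of 1.84 and did not pass (limma adjusted p = 0.172), and without EKO replicate 3 its difference was 0.77.

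Dsc1 and Dsc3, the epidermal desmocollins on either side of Dsc2 in the genome, did not share its pattern. Dsc1, the desmocollin of the upper layers, read 13.35, 13.50 and 13.28 in EKO replicates 1, 2 and 3, against 13.23, 13.61 and 13.24 in WT replicates 1, 2 and 3 (difference 0.02, 95% interval -0.29 to 0.33). Dsc3, the desmocollin of the basal layer, read 12.06, 12.24 and 12.19 in the EKO replicates, against 12.10, 12.41 and 12.18 in the WT replicates (difference -0.07, 95% interval -0.33 to 0.19). The groups overlapped for both genes, and neither interval holds a change as large as the lower bound of the Dsc2 interval.

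Their dimmer probe sets pointed the other way from Dsc2. The second Dsc1 probe set read 9.22, 9.77 and 10.32 in EKO replicates 1, 2 and 3, against 10.49, 10.81 and 10.20 in WT replicates 1, 2 and 3 (difference -0.73, limma adjusted p = 0.637), with EKO replicate 3 inside the WT range. The second Dsc3 probe set read 6.09, 6.42 and 6.40 in the EKO replicates, against 6.78, 6.80 and 6.58 in the WT replicates (difference -0.42, limma adjusted p = 0.592), with no overlap. Neither passed, and for both genes the brighter and the dimmer probe set disagree in size. The place of each probe set along its transcript is not stated in the sources used here.

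**Figure D2:**
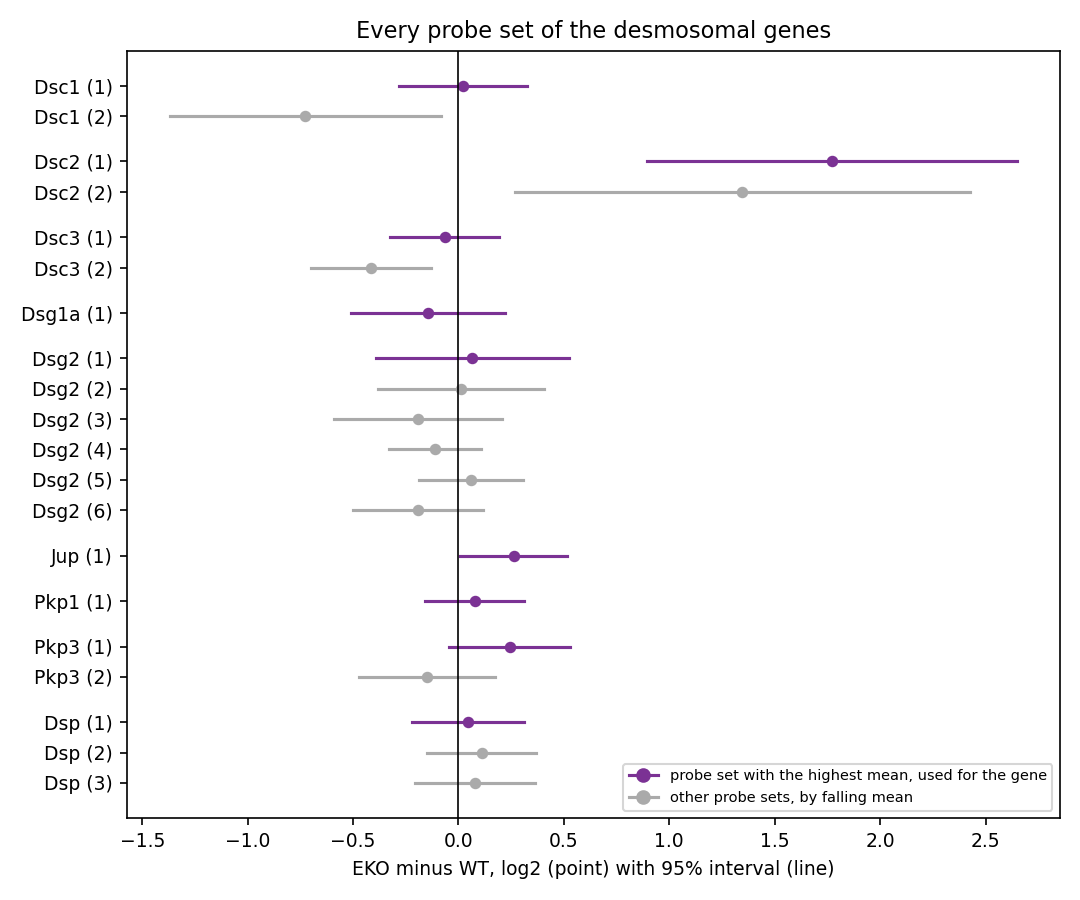
Difference between EKO and WT tumours on the log2 scale (horizontal axis, points, with 95% intervals as lines) for each of the 20 probe sets of the 9 genes, numbered by falling mean within a gene; purple marks the probe set used for the gene and grey the others. Both Dsc2 probe sets lie to the right of 0, at 1.77 and 1.35, the dimmer Dsc1 and Dsc3 probe sets lie to the left, at -0.73 and -0.42, and most others cross 0.

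The balance of the desmocollins was read within each array as the difference of their log2 values, a description chosen after their values were known. Dsc2 over Dsc3 stood at -1.10, -2.48 and -0.77 in EKO replicates 1, 2 and 3, against -3.32, -3.53 and -3.01 in WT replicates 1, 2 and 3. Each EKO tumour thus lay above every WT tumour, with a difference of 1.84 between the group means. Dsc2 over Dsc1 differed by 1.75, with EKO values of -3.74 to -1.87 and WT values of -4.73 to -4.07, also without overlap. Dsc3 over Dsc1 differed by -0.09, with EKO values of -1.29 to -1.10 and WT values of -1.20 to -1.06. In two-sided exact permutation tests the ratios with Dsc2 each gave p = 0.1, the smallest that 3 against 3 allows, and Dsc3 over Dsc1 gave p = 0.3 (0.15, 0.15 and 0.3 after Benjamini-Hochberg adjustment over the 3 ratios). Since Dsc1 and Dsc3 hardly differed and the values were already known, the ratios with Dsc2 repeat the Dsc2 separation. Their tests are no separate evidence.

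**Figure D3:**
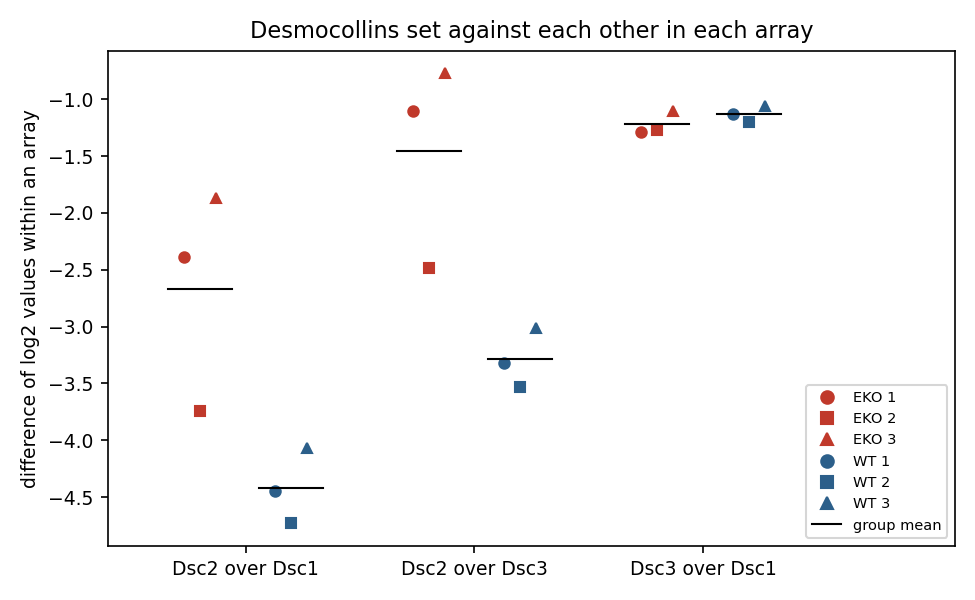
Log2 value of one desmocollin minus that of another within the same array (vertical axis), with EKO tumours in red left of WT tumours in blue, shapes for replicates and black lines for group means. Both ratios with Dsc2 are higher in each EKO tumour than in any WT tumour, whereas Dsc3 over Dsc1 overlaps, with group means of -1.22 in EKO and -1.13 in WT tumours.

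The desmogleins gave no separation of the groups. Dsg1a, a desmoglein of the upper epidermal layers, read 11.44, 11.77 and 11.70 in EKO replicates 1, 2 and 3, against 11.53, 12.07 and 11.74 in WT replicates 1, 2 and 3 (difference -0.14, 95% interval -0.52 to 0.23). Its near copy Dsg1b, followed beside it, read 9.99, 10.04 and 9.97 in the EKO replicates, against 9.65, 10.17 and 9.52 in the WT replicates, with a difference of 0.22. Probes of such close copies may share transcripts, so the 2 genes are uncertain as separate readings.

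Dsg2, the desmoglein shared with simple epithelia, was measured by 6 probe sets, and none separated the groups. The brightest read 9.65, 9.78 and 9.10 in EKO replicates 1, 2 and 3, against 9.29, 9.34 and 9.71 in WT replicates 1, 2 and 3 (difference 0.07, 95% interval -0.40 to 0.54). Over the 6 probe sets the differences ran from -0.19 to 0.07, 3 of them below 0. Dsg2 and Dsc2, which stand together as the widely expressed pair of desmosomal cadherins, thus did not move together. By the brightest probe sets, EKO replicate 3 had the highest Dsc2 value and the lowest Dsg2 value of the 6 arrays. The next 2 Dsg2 probe sets were also lowest there, at 8.55 and 6.78, while the dimmest 3 were lowest in other arrays.

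In the mouse genome all 6 cadherin genes of the family lie in 1 run on chromosome 18, in the order Dsc3, Dsc2, Dsc1, Dsg1c, Dsg1a, Dsg1b, Dsg4, Dsg3 and Dsg2, per RefSeq's table of the GRCm38.p6 assembly. No other protein-coding gene interrupts this run of 9, of which 6 were measured. Its measured genes other than Dsc2 had differences between -0.14 and 0.22, and Dsc2, second in the run, had 1.77.

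Of the armadillo proteins, Jup came nearest to Dsc2 in separating the groups, at a much smaller size. Jup encodes plakoglobin, which sits in desmosomes and in adherens junctions and is a close relative of beta-catenin. It read 9.57, 9.55 and 9.65 in EKO replicates 1, 2 and 3, against 9.32, 9.50 and 9.15 in WT replicates 1, 2 and 3. The 3 EKO values lay within 0.10 of each other and above all WT values, the lowest EKO value by less than the spread within either group. The difference was 0.26, or 1.20-fold higher in EKO (95% interval 0.01 to 0.52), and did not pass (limma adjusted p = 0.693). With single arrays left out it ran from 0.18 to 0.35, and 1 probe set was all that measured it.

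The plakophilins, which bind the cadherin tails and desmoplakin, overlapped between the groups. Pkp1, the plakophilin of stratified epithelia, read 12.78, 12.95 and 13.03 in EKO replicates 1, 2 and 3, against 12.89, 12.88 and 12.75 in WT replicates 1, 2 and 3 (difference 0.08, 95% interval -0.16 to 0.31). Pkp3, found in nearly all epithelia, read 11.07, 11.21 and 10.95 in the EKO replicates, against 10.72, 10.74 and 11.05 in the WT replicates (difference 0.24, 95% interval -0.05 to 0.53). WT replicate 3 was the WT tumour that reached into the EKO range of Pkp3. The dimmer Pkp3 probe set had a difference of -0.15, and the mean over both gave 0.05, so no direction is given for this gene.

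Dsp, which encodes desmoplakin, the link from the plaque to keratin, differed least in relation to its spread among the plaque proteins. It read 14.04, 14.23 and 14.03 in EKO replicates 1, 2 and 3, against 13.89, 14.21 and 14.06 in WT replicates 1, 2 and 3 (difference 0.05, 95% interval -0.22 to 0.31). These values lie near the highest of their arrays, 14.91 to 14.97, where differences may be understated. Its 3 probe sets had differences of 0.05, 0.11 and 0.08, and all overlapped.

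For the 8 genes other than Dsc2, the intervals of the probe sets that stood for them were narrow. Their widest limits, -0.52 for Dsg1a and 0.54 for Dsg2, correspond to 1.43-fold lower and 1.45-fold higher in EKO, and the limma adjusted p of the 8 ran from 0.693 to 0.982. Dimmer probe sets reached further down, to -1.37 for Dsc1, -0.70 for Dsc3 and -0.59 for Dsg2, so these limits hold for the brightest probe sets alone. The SD within EKO tumours was 0.86 for Dsc2 and between 0.05 and 0.36 for the other 8, against 0.20 and between 0.08 and 0.28 in WT tumours. The signs for Dsc1, Dsc3, Dsg1a, Dsg2 and Dsp changed with single arrays left out, so no direction is given for these 5. Of all 20 probe sets 0 passed the test, against 0.00572% of all probe sets. EKO lay wholly above WT in 3, against 5.5% of all probe sets, and wholly below in 1, against 6.83%.

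Replicates with the number 2 stood out on the high side for the epidermal cadherins and desmoplakin in both groups. By their brightest probe sets, Dsc1, Dsc3, Dsg1a and Dsp were each highest in replicate 2 within EKO and within WT. These were the 2 highest of the 6 arrays for all 4 genes. The second Dsp probe set kept this order, and other dimmer probe sets did not. Within EKO the dimmer Dsc1 probe set was highest in replicate 3, at 10.32, as was the dimmest Dsp probe set, at 7.62. The dimmer Dsc3 probe set read 6.42 in EKO replicate 2, below every WT value. The 6 measured markers of suprabasal keratinocytes, such as Krt1 and Krt10, averaged 13.32, 13.61 and 13.62 in EKO replicates 1, 2 and 3, against 13.25, 13.64 and 13.27 in WT replicates 1, 2 and 3, so that WT replicate 2 was also the highest array for them. Their part in the levels of these 4 genes was not tested.

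Dsg2, Pkp3 and Pkp2 varied among the arrays alongside markers of hair follicles, which were unevenly present in the digests. The 7 measured follicle markers, among them the inner root sheath keratins Krt25, Krt27, Krt28 and Krt71, averaged 11.17, 10.97 and 10.06 in EKO replicates 1, 2 and 3, against 8.42, 9.92 and 11.6 in WT replicates 1, 2 and 3. None of the 7 was below the lower quartile throughout, and 6 had a higher EKO mean, against 50% of all genes. The groups overlapped for each, where 5.78% of all genes lay wholly above WT and 6.19% wholly below. EKO replicates 1 and 2 and WT replicate 3, the arrays richest in these markers, also held the 3 highest values of Dsg2, of Pkp3 and of Pkp2, a plakophilin known for its part in heart muscle desmosomes that read 7.10, 6.64 and 6.10 in the EKO replicates, against 6.08, 6.14 and 6.87 in the WT replicates. The summed level of the markers ran from 14.21 to 15.31 in EKO and from 12.47 to 15.62 in WT tumours on the log2 scale, and their part in the values of these genes was not tested. This order held for the brightest probe sets and not for all others: the dimmer Pkp3 probe set had its lowest value, 8.22, in EKO replicate 1, 2 of the dimmer Pkp2 probe sets had theirs, 5.57 and 4.08, in EKO replicate 2, and a dimmer Dsg2 probe set read 6.85 in EKO replicate 1, below every WT value. The order was not particular to follicle markers, since the same 3 arrays were the richest in melanocyte markers. Those 5 markers averaged 9.45, 8.68 and 7.7 in EKO replicates 1, 2 and 3, against 6.52, 8.39 and 9.58 in the WT replicates. Their part was not tested either. Dsc2 did not have this order, since its highest value was in EKO replicate 3, the EKO array poorest in follicle markers.

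**Figure D4:**
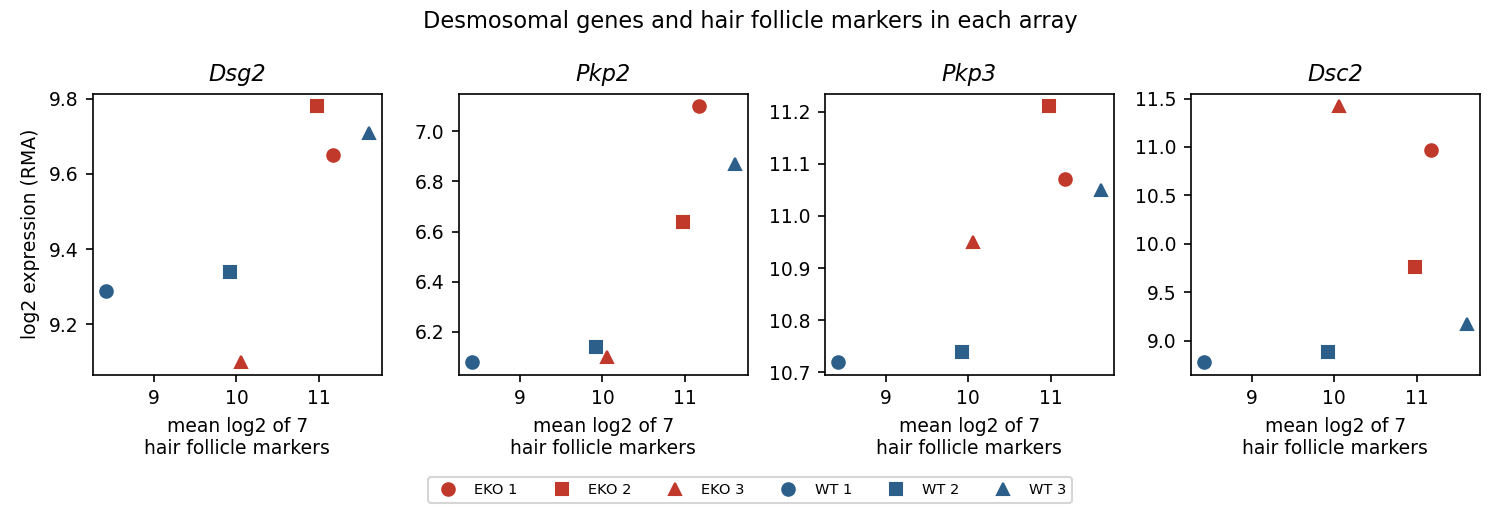
Log2 expression of Dsg2, Pkp2, Pkp3 and Dsc2 (vertical axes, each with its own range) against the mean log2 level of 7 hair follicle markers (horizontal axis) in each array, EKO in red, WT in blue, shapes for replicates. With the brightest probe set of each gene, as drawn, for Dsg2, Pkp2 and Pkp3 the 3 arrays richest in follicle markers hold the highest values. For Dsc2 the 3 EKO values lie above all WT values, with the highest in EKO replicate 3. The marker levels overlap, from 10.06 to 11.17 in EKO and from 8.42 to 11.6 in WT tumours. EKO replicate 3 and WT replicate 2, nearest in marker level at 10.06 and 9.92, read 11.42 and 8.88 for Dsc2. The part of the follicle markers in the Dsc2 values was not tested.

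Of 15 lists of cell type markers, 0 had a mean log2 level that separated the groups, and 2 had a summed level that did. Among single genes, EKO lay wholly above WT for 5.78% and wholly below for 6.19%. The summed macrophage markers ran from 11.13 to 11.57 in EKO and from 11.58 to 11.94 in WT tumours on the log2 scale, so that the groups almost touched. All 6 markers had lower EKO means, where 50% of all genes had higher ones. The summed markers of dendritic and Langerhans cells ran from 10.43 to 10.72 in EKO and from 10.74 to 10.95 in WT tumours. The gap was narrow here too, and all 5 had lower EKO means, beside the same share of all genes. No marker of either list was below the lower quartile throughout, and the part of these lists in the Dsc2 and Jup differences was not tested. The 5 markers of simple epithelia, the other home of Dsc2, averaged 6.71, 6.61 and 6.66 in EKO replicates 1, 2 and 3, against 6.06, 6.18 and 6.69 in WT replicates 1, 2 and 3, and WT replicate 3 overlapped the EKO tumours. Their summed level, which the bright marker Epcam dominates, ran from 11.4 to 11.88 in EKO and from 11.68 to 12.07 in WT tumours, and the markers did not go 1 way, with a difference of 1.28 for Krt18 and -0.30 for Epcam, which were named after their values were seen. None of the 5 was below the lower quartile throughout. Krt7 and Krt19 lay below the median of every array, where differences may be narrowed. Krt18 did so in WT replicates 1 and 2, at 4.59 and 4.4. The part of the simple epithelium markers in the Dsc2 difference was not tested.

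The remaining desmosome genes differed little by their means. Of 7 listed, 5 were measured, and 0 passed the test, while all 5, against 50% of all genes, had slightly higher EKO means, from 0.02 for Perp to 0.25 for Pkp2 (median 0.22). The Pkp2 interval was wide, from -0.46 to 0.95, and its dimmer probe sets did not go 1 way, with differences of -0.18, 0.14 and 0.255. Perp, a membrane protein that desmosomes of stratified epithelia need, averaged 14.05 ± 0.04 in EKO tumours and 14.03 ± 0.07 in WT tumours (SD, n = 3 each), and Cdsn, corneodesmosin of the cornified layer, had a difference of 0.02. Pkp4, a relative of the plakophilins, read 9.57, 9.38 and 9.50 in EKO replicates 1, 2 and 3, against 9.33, 9.16 and 9.22 in WT replicates 1, 2 and 3 (difference 0.24, limma adjusted p = 0.662). Pkp4 was the 1 gene of the 5 without overlap, against 5.78% of all genes with EKO above WT, and its second probe set gave 0.28, also without overlap.

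The plakins and the other keratinocyte junctions showed small differences as well. All 6 plakins had higher EKO means (median 0.24), against 50% of all genes, with 0 past the test. EKO lay wholly above WT, as for 5.78% of all genes, for 2 of the 6, Macf1 (difference 0.34), a plakin that links actin and microtubules, and Plec (0.25), plectin of hemidesmosomes. Dst, which encodes the dystonin forms of hemidesmosomes and other junctions, had a difference of 0.24. Of 12 adherens junction genes, 11 had higher EKO means (median 0.11), 0 passed, and 2 were wholly above WT, against the same shares of all genes, 50% and 5.78%. Cdh3, P-cadherin of basal cells and follicles, had a difference of 0.36 (limma adjusted p = 0.621), the actin-linked protein Ajuba one of 0.17, and Ctnnd1, p120 catenin, one of 0.13. Cdh3 and Ajuba were the 2 without overlap. Cdh1, E-cadherin, differed by 0.003 (95% interval -0.28 to 0.28). Hemidesmosome genes had a median of 0.25 over 6 genes, Plec and Dst among them, with 0 past the test and Itga6, the integrin that pairs with Itgb4, at 0.27.

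**Figure D5:**
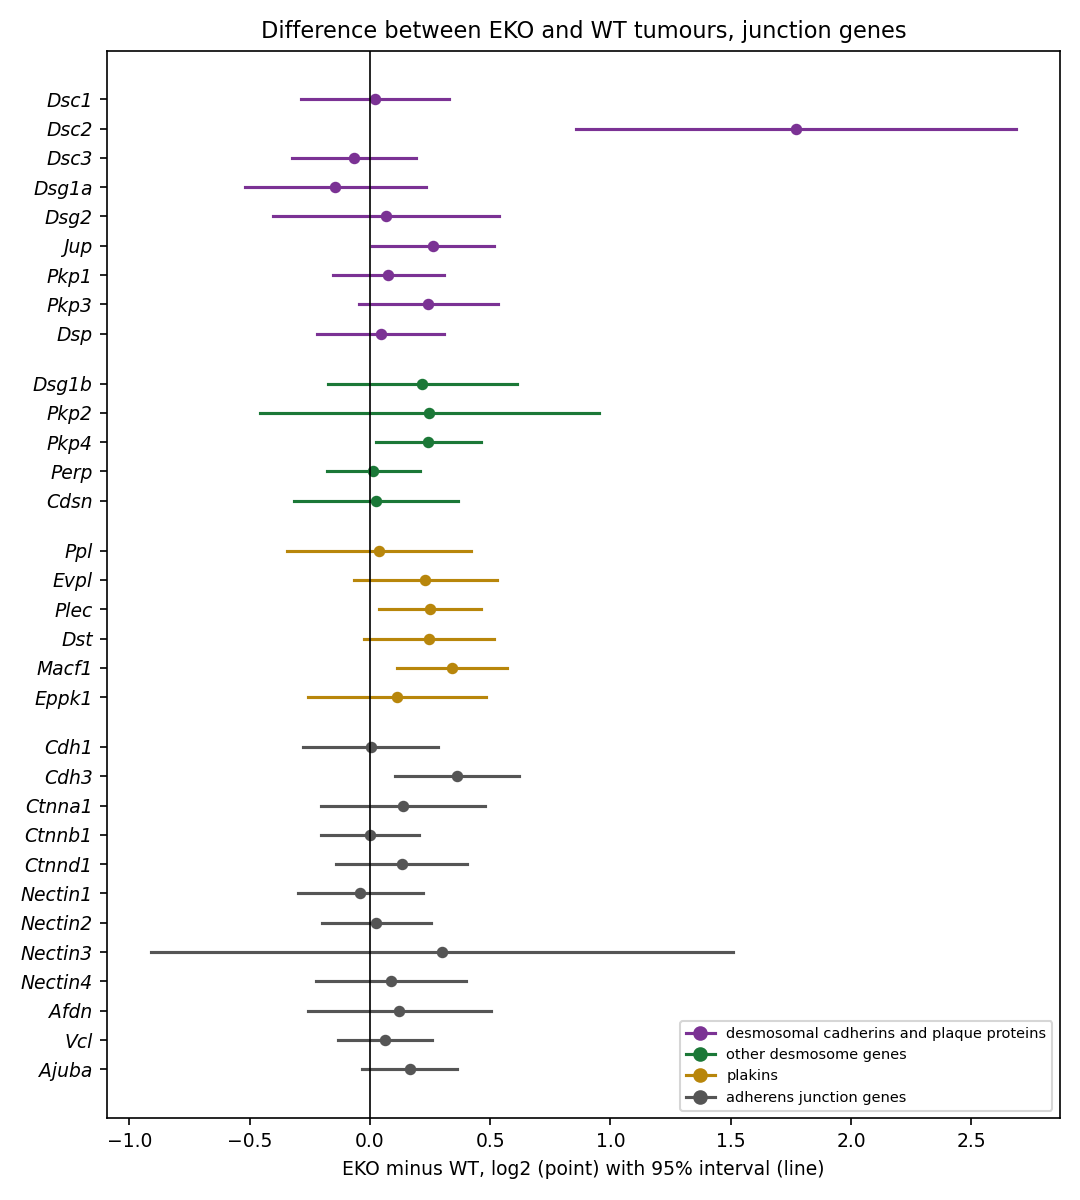
Difference between EKO and WT tumours on the log2 scale (horizontal axis, points, with 95% intervals as lines) for the desmosomal family, other desmosome genes, plakins and adherens junction genes. Dsc2 stands at 1.77 with an interval of 0.86 to 2.69, all other genes lie between -0.14 and 0.36, and none of the genes shown passed the test over all genes.

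Proteases that cut desmosomal proteins had mostly lower means in EKO tumours, without passing the test. Of 8 measured genes in a list of such proteases and their inhibitor, 6 had lower EKO means (median -0.15), where 50% of all genes had higher ones. Of these, Adam9 and Ctsd differed by only -0.08 each, with overlap. In the list 2 genes lay wholly below WT, against 6.19% of all genes. Ctsl, the lysosomal protease cathepsin L, read 13.18, 13.31 and 13.33 in EKO replicates 1, 2 and 3, against 13.76, 13.71 and 13.90 in WT replicates 1, 2 and 3 (difference -0.52, limma adjusted p = 0.546). Klk7, a kallikrein that degrades corneodesmosomes in the outermost layer, read 13.66, 13.94 and 13.76 in the EKO replicates, against 14.15, 14.26 and 14.11 in the WT replicates (difference -0.39, limma adjusted p = 0.621). Its partner protease Klk5 had a difference of -0.40 with overlap. Cathepsin L is also made by macrophages, whose summed markers were lower in EKO tumours by a narrow gap as given above, and their part in this difference was not tested. Of 8 measured regulators of epidermal adhesion and differentiation genes, such as the p63 gene Trp63, 7 had higher EKO means (median 0.12), against 50% of all genes. In this list 0 passed and 0 were free of overlap, where 5.78% of all genes lay wholly above WT and 6.19% wholly below. The transcription factors Grhl3, Klf5 and Zfp750, which had the smallest unadjusted p of this list, differed by 0.22, 0.20 and 0.14 on the log2 scale.

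The 5 genes whose values followed Dsc2 most closely over the 6 arrays were found by the root mean square difference between their deviations and those of Dsc2, each gene's deviations being taken from its own mean. This measure was 0.20 for Nexmif, a gene of neurite extension, 0.27 for Fst, the activin antagonist follistatin, 0.29 for Tgm3, a transglutaminase that cross-links the cornified envelope, 0.29 for Anxa3, an annexin, and 0.29 for Artn, the growth factor artemin, where the deviations of Dsc2 itself had a root mean square of 1.02. Tgm3 read 11.60, 9.57 and 12.07 in EKO replicates 1, 2 and 3, against 8.96, 9.13 and 9.43 in WT replicates 1, 2 and 3, and had the order of Dsc2 in all 6 arrays. Fst read 10.46, 8.70 and 10.90 in the EKO replicates, against 8.39, 8.65 and 8.39 in the WT replicates, so that EKO replicate 2 lay just above the WT tumours. All 5 had EKO replicate 3 highest, then EKO replicate 1, then EKO replicate 2, and none passed the test (limma adjusted p of 0.583 for Nexmif to 0.63 for Fst). They were picked for their likeness to Dsc2, so the shared order and the higher EKO values follow from the choice. Nexmif lay below the lower quartile in 4 arrays and Artn in 2, where differences are narrowed.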

How the data were processed

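Per the submitters' processing notes RMA and Partek 6.6 were used, and the authors deposited log2 values of 45101 probe sets. RMA corrects background, equalises array distributions and summarises probes, which narrows differences near the floor. Values ran from 2.23 to 14.96 outside the controls and were used as deposited. The 64 control probe sets were left out, as were 932 with several symbols and 9160 unnamed here. The remaining 34945 represented 18193 genes, each by its brightest probe set over the 6 arrays. Array medians lay between 5.41 and 5.43, and arrays correlated with r of 0.986 to 0.994 across probe sets. The sources used here state no detection calls, scan dates or batches.

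Differences are EKO minus WT and were tested with limma 3.58.1 under R 4.3.3 (lmFit, eBayes, two-sided, Benjamini-Hochberg over all genes, threshold 0.05), and the procedure was tested on simulated data. The members and lists were chosen with earlier results of these data known. Named genes were the family, Fabp5, other desmosome genes, up to 3 genes per further junction, protease and regulator list by smallest unadjusted p, and the 5 most like Dsc2. Further genes named were chosen after their values were seen. The alternatives were a replicate block, an upper 50% filter, centred medians, repeated quantile normalization, trended robust variances, array weights, means over probe sets and each array left out.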

Additional observations from a re-analysis of the deposited data

How the results depend on the processing

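Under all 13 alternatives Dsc2, Jup, Pkp1 and Pkp3 kept a higher EKO mean, Dsc2 between 1.42 and 2.25. With single arrays left out, the genes past the threshold numbered 1 to 42 (42 without EKO replicate 2, 2 without WT replicate 2) and those of the family 0 to 1, the 1 being Dsc2 without EKO replicate 2. The median of the family then ran from -0.02 to 0.13. The sign turned for genes near 0, whose differences ran with single arrays left out from -0.045 to 0.147 for Dsc1, -0.132 to 0.026 for Dsc3, -0.27 to 0.003 for Dsg1a, -0.067 to 0.271 for Dsg2 and -0.037 to 0.125 for Dsp. Array weights gave -0.017 for Dsc1. Means over probe sets gave -0.35 for Dsc1, -0.059 for Dsg2 and 0.11 for Dsc3 over Dsc1, since they take in dimmer probe sets of lower EKO mean; the cause of the other turns was not tested. A replicate block left the count at 1 gene, Dsc2 at 1.77 (limma adjusted p = 0.599) and the family's median at 0.07. The labels give same-numbered arrays nothing in common but the number. Their deviations from the group means correlated at -0.07, -0.09 and -0.34 across genes, and no EKO array correlated best with its own number. Deviations within a group offset each other, so these correlations cannot settle whether the arrays were paired. Without detection calls, signal over background is unknown.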
